A study of Homo sapiens with 4 samples.

Results

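The 38 genes described here encode glucose transporters, glycolytic enzymes and products of the hypoxia response. They were chosen by symbol among the 53777 rows of the deposited table that carry an Ensembl gene identifier, and all 38 had a single such row. Expression was measured by RNA sequencing of total RNA in NUGC3 cells, a line from a human gastric cancer. Both control libraries, scramble 1 and scramble 2, came from cells transfected with a scramble sequence. Both knockdown libraries came from cells transfected with short hairpins against NIPBL, which encodes the loader of the cohesin ring, with 1 library for shNIPBL#1 (hairpin 1) and 1 for shNIPBL#7 (hairpin 7). All 4 labels carry the letters DOX, which they do not explain, and give no time after transfection. Scramble 2 has the label of scramble 1 with the suffix R1, and no label names separate cultures within a group. P-values therefore measure only how these libraries scatter, and that scatter may be technical.

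Glycolysis splits glucose into pyruvate in the cytosol, and lactate dehydrogenase then turns pyruvate into lactate. The transcription factor HIF joins an oxygen-sensitive alpha subunit (HIF1A or EPAS1) to a stable partner. In oxygen, prolyl hydroxylases of the EGLN family mark the alpha subunit for destruction through VHL. When oxygen is low the subunit persists and raises genes of glucose uptake, glycolysis, angiogenesis, pH control and mitophagy, among them many of the enzymes described here. Tumour cells often keep glycolysis high in oxygen as well. The members were therefore read in 2 classes, 20 genes of glucose transport, glycolysis and lactate formation and 18 hypoxia genes outside glycolysis.

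Values are FPKM, which scale a read abundance to transcript length and library size, so levels can be compared between genes. Over the gene rows of a library they summed to 618833 at the lowest and 685330 at the highest. How many reads lie behind them is unknown. NIPBL had 23.92 and 23.11 FPKM with scramble, 7.27 with hairpin 1 and 9.17 with hairpin 7, and it fell by 1.42 on the log2 scale (limma, adjusted p = 0.0218). The epithelial markers EPCAM, KRT8, KRT18, KRT19, CDH1 and CLDN4 lay between 54.25 and 2131.15 FPKM in every library. Of 10 markers of leukocytes, endothelium and fibroblasts with a row, PTPRC and COL1A2 were listed at 0 in all 4 libraries, 6 lay at 0.95 FPKM or less and COL1A1 was between 5.75 and 9.39. The macrophage marker CD68, a lysosomal protein, was at 12.41 and 17.08 FPKM in scramble and at 31.48 and 37.71 with the hairpins, and its part in the results was not tested. Gene by gene, the log2 difference between the scramble libraries had an SD of 0.282 and that between the hairpin libraries an SD of 0.451.

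With NIPBL lowered, most members lay above scramble, more so with hairpin 7 than with hairpin 1, while a single member passed the adjusted threshold. The 38 members together took 1.68% and 1.71% of the FPKM of the gene rows in the scramble libraries, 1.95% with hairpin 1 and 2.48% with hairpin 7. Most of this was the glycolysis class, at 1.57% and 1.61% in scramble, 1.85% with hairpin 1 and 2.32% with hairpin 7. The hypoxia class was at 0.104% and 0.103% in scramble, lower with hairpin 1 (0.0938%) and higher with hairpin 7 (0.156%). Genes whose 4 libraries averaged 1 FPKM or more were tested with limma on log2(FPKM + 1), with Benjamini-Hochberg adjustment over all 12834 genes and a threshold of 0.05. Of the 38 members 35 entered this test. BNIP3, CA9 and CA12 did not reach the minimum, and ANGPTL4 reached it only through hairpin 7. A single member, ANKRD37, rose and 0 fell, where 1.45% of all genes tested rose and 1.11% fell. At an unadjusted p under 0.05 there were 16 members higher and 2 lower, against 13.6% and 12.8% of all genes. Both hairpins lay above both scramble libraries in 23 of the 35, where 29.5% of all genes did so, and below in 3, where 30.8% did. The log2 change, knockdown minus scramble, was above 0 in 28 of the 35, against 48.3% of all genes. Among genes with a scramble mean of at least 1 FPKM, which leaves out ANGPTL4, both hairpins lay above scramble in 22 of 34 members, against 28.3%. The log2 change was above 0 in 27 of these 34, against 5875 of 12506 such genes.

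**Figure D1:**
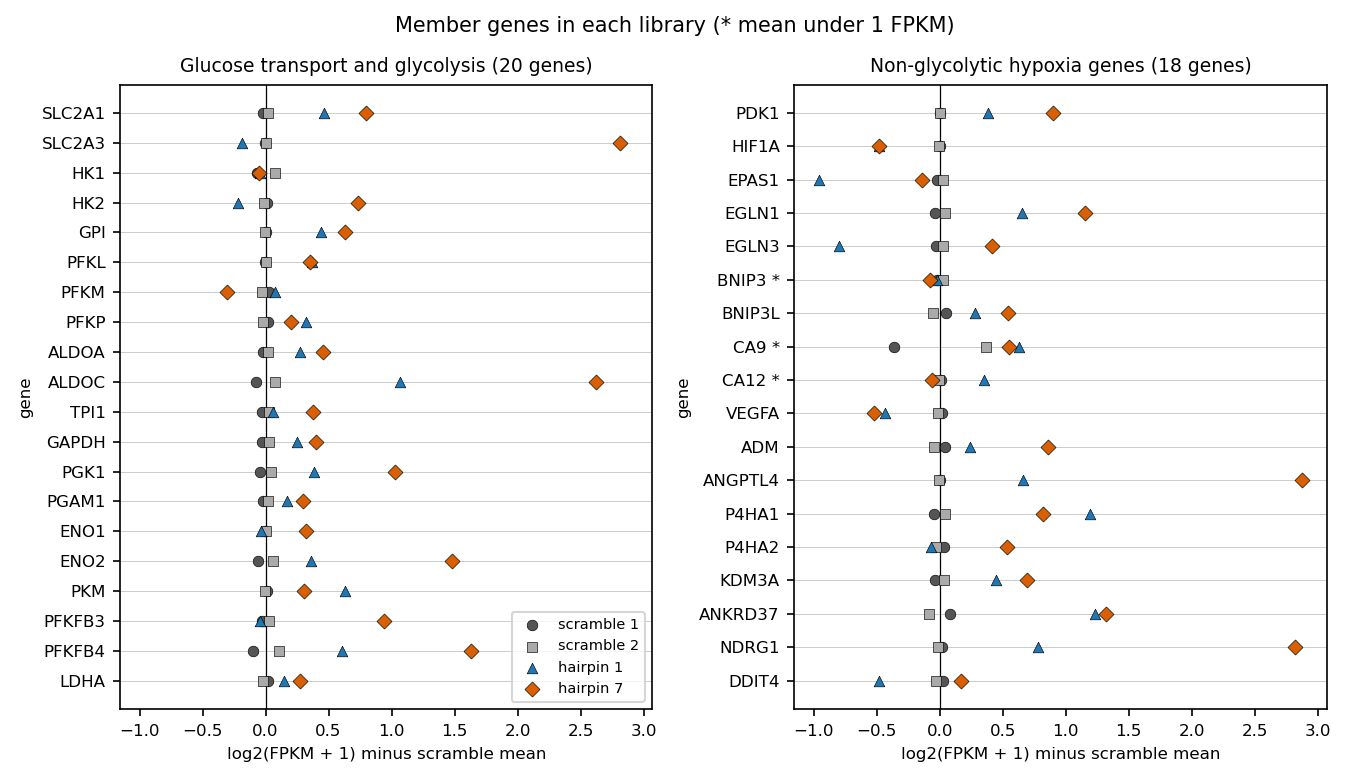
Each row is a member gene and each point a library, placed by its log2(FPKM + 1) minus the mean of the scramble libraries (x axis, log2 units). Grey points are scramble, blue triangles hairpin 1 and orange diamonds hairpin 7, and the widest gaps between the hairpins are those of SLC2A3, ANGPTL4 and NDRG1.

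ANKRD37 (ENSG00000186352, chromosome 4), which encodes a small ankyrin repeat protein and is a known HIF target, had 4.06 and 3.51 FPKM with scramble, 10.20 with hairpin 1 and 10.93 with hairpin 7. The groups did not overlap, and the hairpins were close to each other. The scramble mean was 3.78 ± 0.389 and the knockdown mean 10.6 ± 0.516 FPKM (SD, n = 2 each), a 2.79-fold rise with a change of 1.27 ± 0.13 in log2 units (SE, limma, adjusted p = 0.0239). Without scramble 1 or scramble 2 the log2 change was 1.36 and 1.19, with limma adjusted p = 0.256 and 0.326, in fits that called 0 of the genes in the whole table (1060 and 1052 at an unadjusted p under 0.05). UFSP2, a gene on the opposite strand that overlaps ANKRD37, was at 17.38 and 18.01 FPKM in scramble and at 21.44 and 18.26 with hairpins 1 and 7.

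Upstream sequences are shown for ANKRD37, the member that passed, and for ALDOC and ALDOA, of 9 pairs of related members the pair whose log2 changes were most unlike. They are the 250 bases before a transcript start in RefSeq (GRCh38.p14), at chr4:185396591-185396840 (plus strand), chr17:28576896-28577145 (minus strand) and chr16:30065510-30065759 (plus strand), written 5′ to 3′. ALDOA has 3 listed starts, of which the most downstream is shown. Capitals mark ACGTG or GCGTG on either strand (a match on the other strand reads CACGT or CACGC), the core letters of the hypoxia response element that HIF binds.
ANKRD37: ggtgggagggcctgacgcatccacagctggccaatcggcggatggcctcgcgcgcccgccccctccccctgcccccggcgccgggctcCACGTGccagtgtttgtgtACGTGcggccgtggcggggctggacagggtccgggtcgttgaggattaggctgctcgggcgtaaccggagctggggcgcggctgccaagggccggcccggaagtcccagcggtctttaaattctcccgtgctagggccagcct
ALDOC: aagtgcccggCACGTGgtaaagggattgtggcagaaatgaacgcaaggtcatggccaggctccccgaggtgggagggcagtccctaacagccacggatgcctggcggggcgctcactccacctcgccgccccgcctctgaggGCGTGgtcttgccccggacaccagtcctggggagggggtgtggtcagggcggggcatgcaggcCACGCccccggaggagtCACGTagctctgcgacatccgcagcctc
ALDOA: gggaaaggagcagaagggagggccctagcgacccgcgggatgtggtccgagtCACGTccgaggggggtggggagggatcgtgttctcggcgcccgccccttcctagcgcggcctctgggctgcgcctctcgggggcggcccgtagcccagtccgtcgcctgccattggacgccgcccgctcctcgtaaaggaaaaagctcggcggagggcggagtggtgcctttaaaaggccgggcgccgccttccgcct
ANKRD37 has 2 marked runs, ALDOC 4 and ALDOA 1 at the start shown. All 3 ALDOA windows held ACGTG and 1 of them, not the one shown, held CACGTG, so what is marked for ALDOA depends on the start chosen. The first run in both ANKRD37 and ALDOC is CACGTG, which holds ACGTG on both strands and is also the E-box that MYC with MAX can bind. RefSeq starts were matched for 34 of the 38 members, 58 windows in all, of which 36 (62.1%) held ACGTG or GCGTG, against 43.2% of all 35116 windows. ACGTG alone was in 39.7% of the members' windows and in 18.5% of all windows, and CACGTG in 13.8% and 6.34%. By class, 22 of 40 glycolysis windows and 14 of 18 hypoxia windows held either core. A match says only that the letters are there, and genes with several starts count once for each.

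Glucose enters through transporters of the SLC2A family. SLC2A1, the widespread basal transporter, was at 86.24 and 88.77 FPKM in scramble, 120.90 with hairpin 1 and 152.86 with hairpin 7, a change of 0.63 ± 0.14 in log2 units (SE, limma, adjusted p = 0.083). SLC2A3, a high-affinity transporter, was at 9.50 and 9.59 FPKM in scramble, 8.28 with hairpin 1 and 72.92 with hairpin 7. The 2 hairpins thus lay on opposite sides of scramble, and the log2 change of SLC2A3 was 1.31 ± 0.96 (SE, limma, adjusted p = 0.429). Its share of the summed FPKM of both transporters was 9.92% and 9.75% in scramble, 6.41% with hairpin 1 and 32.3% with hairpin 7. SLC2A14, a near copy of SLC2A3, was at 0.03 FPKM or less in each library.

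Hexokinases trap glucose as glucose 6-phosphate. HK1, the constitutive form, was at 42.29 and 46.76 FPKM in scramble, 43.13 with hairpin 1 and 42.94 with hairpin 7, within the range of the scramble libraries. HK2, the inducible form, was at 29.68 and 29.13 FPKM in scramble, 25.15 with hairpin 1 and 49.42 with hairpin 7. HK2 made up 41.2% and 38.4% of the pair in scramble, 36.8% with hairpin 1 and 53.5% with hairpin 7. As with SLC2A3, hairpin 1 was below scramble and hairpin 7 above.

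GPI, which makes fructose 6-phosphate, was at 133.88 and 133.05 FPKM in scramble, 181.18 with hairpin 1 and 206.89 with hairpin 7 (log2 change 0.53 ± 0.11, SE, limma, adjusted p = 0.0753). Of the phosphofructokinase subunits, which catalyse the committed step, PFKL was at 49.37 and 49.64 FPKM in scramble and at 64.08 and 63.50 with the hairpins (log2 change 0.36 ± 0.09, SE, limma, adjusted p = 0.0929). PFKP, the most abundant of the 3 subunits, was at 83.29 and 80.88 FPKM in scramble and at 102.61 and 94.65 with hairpins 1 and 7, and kept between 52.2% and 53.2% of the summed FPKM of the 3. PFKM, the muscle-type subunit, was at 25.51 and 24.43 FPKM in scramble, 26.29 with hairpin 1 and 19.96 with hairpin 7, and its share went from 16.1% and 15.8% to 13.6% and 11.2%. Groups did not overlap for GPI, PFKL and PFKP, and did for PFKM.

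PFKFB3 and PFKFB4 encode bifunctional enzymes that set fructose 2,6-bisphosphate, the activator of phosphofructokinase. PFKFB3 was at 35.85 and 37.15 FPKM in scramble, 35.29 with hairpin 1 and 70.99 with hairpin 7. PFKFB4 was at 3.77 and 4.51 FPKM in scramble, 6.79 with hairpin 1 and 14.89 with hairpin 7, a change of 1.12 ± 0.35 in log2 units (SE, limma, adjusted p = 0.142). Only hairpin 7 set PFKFB3 apart from scramble, whereas both hairpins did so for PFKFB4.

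The aldolases split fructose 1,6-bisphosphate. ALDOA was at 1710.31 and 1751.25 FPKM in scramble, 2089.45 with hairpin 1 and 2371.52 with hairpin 7 (log2 change 0.36 ± 0.13, SE, limma, adjusted p = 0.176). ALDOC, the brain-type form, was at 7.28 and 8.23 FPKM in scramble, 17.31 with hairpin 1 and 52.87 with hairpin 7 (log2 change 1.84 ± 0.51, SE, limma, adjusted p = 0.114). Hairpin 7 was 6.82-fold and hairpin 1 2.23-fold above the scramble mean, and the groups did not overlap. ALDOC still gave no more than 2.18% of the summed FPKM of both aldolases, reached with hairpin 7, against 0.424% and 0.468% in scramble. TPI1, which interconverts the triose phosphates, was at 464.55 and 481.81 FPKM in scramble, 493.58 with hairpin 1 and 615.09 with hairpin 7.

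In the later steps, which yield ATP, GAPDH was the most abundant member, at 2487.92 and 2579.81 FPKM in scramble, 3007.15 with hairpin 1 and 3338.28 with hairpin 7 (log2 change 0.32 ± 0.14, SE, limma, adjusted p = 0.22). PGK1, a kinase that forms ATP, was at 560.84 and 597.74 FPKM in scramble, 754.75 with hairpin 1 and 1182.07 with hairpin 7 (log2 change 0.71 ± 0.23, SE, limma, adjusted p = 0.151). PGAM1, a mutase, was at 275.82 and 282.63 FPKM in scramble and at 313.93 and 342.58 with hairpins 1 and 7. For these 3 genes both hairpins lay above both scramble libraries, hairpin 7 further than hairpin 1.

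Enolases make phosphoenolpyruvate. ENO1 was at 1522.86 and 1536.84 FPKM in scramble, 1488.84 with hairpin 1 and 1910.17 with hairpin 7. ENO2, the neuronal form, was at 18.26 and 19.88 FPKM in scramble, 24.70 with hairpin 1 and 54.79 with hairpin 7 (log2 change 0.92 ± 0.37, SE, limma, adjusted p = 0.203), and its share of both enolases was 1.18%, 1.28%, 1.63% and 2.79% in that order. PKM, the pyruvate kinase gene, was at 1165.59 and 1152.49 FPKM in scramble, 1793.56 with hairpin 1 and 1434.53 with hairpin 7 (log2 change 0.47 ± 0.15, SE, limma, adjusted p = 0.147). PKM was among the 8 tested members that were higher with hairpin 1 than with hairpin 7. LDHA, whose subunit favours lactate formation, was at 1922.53 and 1866.87 FPKM in scramble and at 2098.93 and 2288.61 with hairpins 1 and 7.

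The 20 glycolysis members, all of them tested, had a median log2 change of 0.36, against -0.01 over all genes tested, with a range from -0.12 for PFKM to 1.84 for ALDOC. Both hairpins lay above both scramble libraries in 14 of the 20 and below in 0, against 29.5% and 30.8% of all genes. In limma 0 of the 20 passed, against 1.45% higher and 1.11% lower over all genes. At an unadjusted p under 0.05 there were 9 higher and 0 lower, against 13.6% and 12.8% of all genes. The 8 members above a mean of 250 FPKM, a limit chosen after the values were seen, had a median of 0.28, and the 12 below it had a median of 0.49. Those 8 genes (ALDOA, TPI1, GAPDH, PGK1, PGAM1, ENO1, PKM and LDHA) summed to 10110 and 10249 FPKM in scramble, 12040 with hairpin 1 and 13483 with hairpin 7. The sum of the other members of the class was far smaller, so the total for the pathway followed these abundant enzymes.

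**Figure D2:**
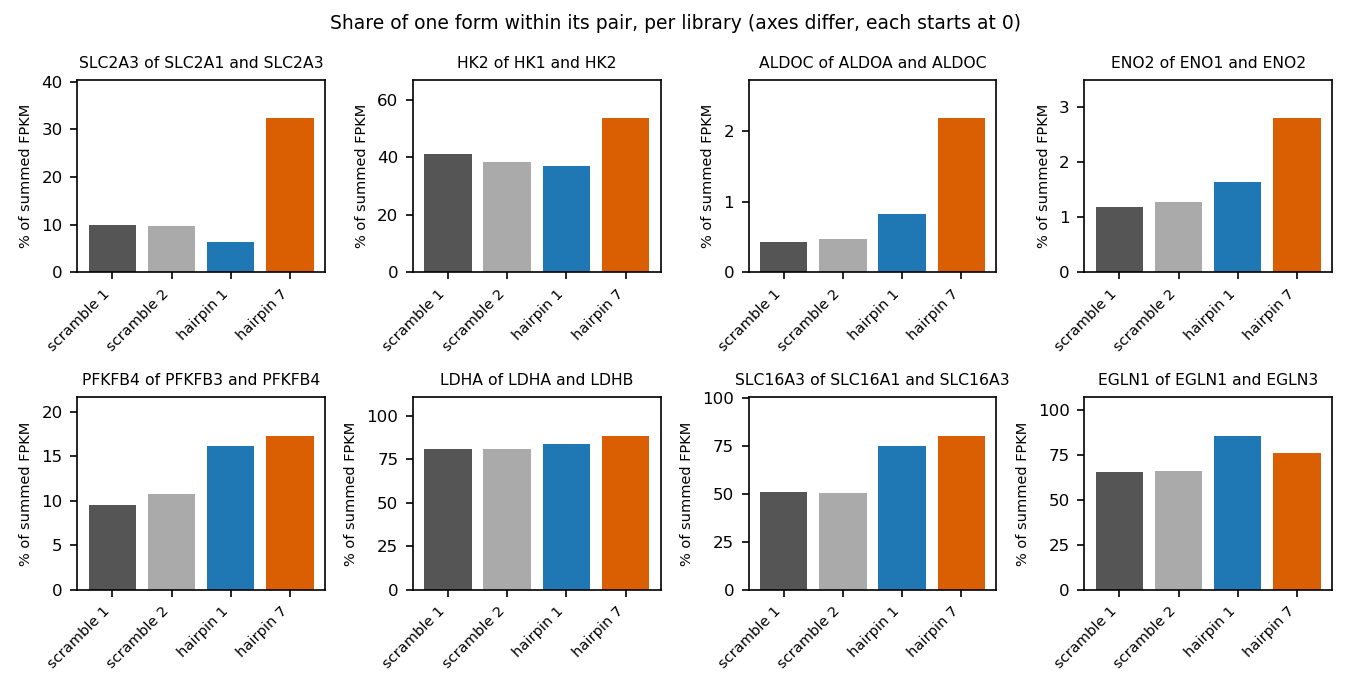
Bars give the share of the first-named form in the summed FPKM of its pair (y axis, percent), in each of the 4 libraries. The share of SLC2A3 reached 32.3% with hairpin 7 against 9.92% and 9.75% in scramble, and that of SLC16A3 was 75.2% and 80.4% with the hairpins against 51.1% and 50.4%.

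The HIF alpha subunits lay below scramble. HIF1A was at 215.18 and 213.44 FPKM in scramble, 153.38 with hairpin 1 and 152.77 with hairpin 7. The groups did not overlap and the libraries within each were close, with a change of -0.48 ± 0.09 in log2 units (SE, limma, adjusted p = 0.0664). EPAS1 was at 25.38 and 26.27 FPKM in scramble, 12.77 with hairpin 1 and 23.39 with hairpin 7 (log2 change -0.55 ± 0.28, SE, limma, adjusted p = 0.282). HIF activity is set largely by the stability of these proteins, which was not measured.

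Of the hydroxylases, which are also HIF targets, EGLN1 was at 13.32 and 14.10 FPKM in scramble, 22.16 with hairpin 1 and 31.69 with hairpin 7 (log2 change 0.90 ± 0.19, SE, limma, adjusted p = 0.0772). EGLN3 was at 6.94 and 7.26 FPKM in scramble, 3.66 with hairpin 1 and 9.80 with hairpin 7, so the hairpins lay on opposite sides. SPTSSA, a gene of the same strand that overlaps EGLN3 by 29568 bases, was at 40.95 and 37.35 FPKM in scramble. It was at 34.69 with hairpin 1 and 64.22 with hairpin 7, and whether it affects the values of EGLN3 was not tested. PDK1, a kinase that inhibits pyruvate dehydrogenase, was at 23.98 and 24.05 FPKM in scramble, 31.56 with hairpin 1 and 45.56 with hairpin 7 (log2 change 0.64 ± 0.19, SE, limma, adjusted p = 0.127). KDM3A, a histone demethylase gene, was at 18.62 and 19.57 FPKM in scramble and at 26.41 and 31.40 with hairpins 1 and 7 (log2 change 0.57 ± 0.12, SE, limma, adjusted p = 0.0808).

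Among genes of secreted factors, VEGFA, the main angiogenic HIF target, was at 104.34 and 102.28 FPKM in scramble, 76.13 with hairpin 1 and 71.53 with hairpin 7. Its groups did not overlap, with a change of -0.48 ± 0.09 in log2 units (SE, limma, adjusted p = 0.0682), close to that of HIF1A. ADM, the gene of the vasodilator adrenomedullin, was on the other side, at 27.29 and 25.66 FPKM in scramble, 31.43 with hairpin 1 and 48.71 with hairpin 7. ANGPTL4, a lipoprotein lipase inhibitor, was at 0.27 and 0.26 FPKM in scramble, 1.00 with hairpin 1 and 8.30 with hairpin 7 (log2 change 1.77 ± 0.73, SE, limma, adjusted p = 0.211). It entered the test only through hairpin 7, where it was high.

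P4HA1 and P4HA2 encode catalytic subunits of collagen prolyl 4-hydroxylase. P4HA1 was at 15.07 and 16.11 FPKM in scramble, 36.89 with hairpin 1 and 28.26 with hairpin 7, and its groups did not overlap. Its log2 change was 1.01 ± 0.15 (SE, limma, with adjusted p = 0.0509), just outside the threshold. It passed with a pseudocount of 0.1 (limma, adjusted p = 0.0494), quantile normalization (0.0498) or scaling by the median log ratio (0.0452). It did not pass without a mean trend (limma, adjusted p = 0.0734) or with no filter (0.144). P4HA2 was at 20.04 and 19.16 FPKM in scramble, 18.58 with hairpin 1 and 28.78 with hairpin 7. P4HA1 made up 42.9% and 45.7% of the pair in scramble, 66.5% with hairpin 1 and 49.5% with hairpin 7.

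NDRG1, a stress-responsive gene linked to differentiation, was at 34.91 and 34.03 FPKM in scramble, 59.98 with hairpin 1 and 249.57 with hairpin 7. Hairpin 7 was 7.24-fold and hairpin 1 1.74-fold above the scramble mean, and the spread between them left a change of 1.80 ± 0.66 in log2 units (SE, limma, adjusted p = 0.174). DDIT4, an inhibitor of mTORC1, was at 142.57 and 137.17 FPKM in scramble, 99.64 with hairpin 1 and 157.41 with hairpin 7. Of the mitophagy receptors, BNIP3L was at 48.41 and 45.03 FPKM in scramble and at 56.99 and 68.32 with hairpins 1 and 7 (log2 change 0.41 ± 0.12, SE, limma, adjusted p = 0.131).

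Some classic hypoxia genes were barely detected in any library. BNIP3 lay between 0.25 and 0.34 FPKM in the 4 libraries. CA9, the membrane carbonic anhydrase often used as a hypoxia marker, was at 0.12 and 0.86 FPKM in scramble, 1.23 with hairpin 1 and 1.11 with hairpin 7. CA12, a related enzyme, was at 0.05 and 0.04 FPKM in scramble, at 0.33 with hairpin 1 and listed at 0 with hairpin 7. For CA9 the scramble libraries differed from each other by more than scramble 2 did from either hairpin. The 4 pseudogene rows named after BNIP3 summed to at most 0.10 FPKM in a library.

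The 18 non-glycolytic hypoxia members had a median log2 difference of 0.48, and the 15 tested a median log2 change of 0.55, against 0.36 for the glycolysis class. Their changes were more split in sign. Of the 15, both hairpins lay above both scramble libraries in 9 and below in 3 (HIF1A, EPAS1 and VEGFA), against 29.5% and 30.8% of all genes, where the glycolysis class had 14 of 20 above and 0 below. The 15 and the 9 include ANGPTL4, which entered the test only through hairpin 7, so only the 0.48 over all 18 is free of the filter. Leaving out the HIF subunits and hydroxylases, the median was 0.57 over 11 tested genes, and 0.56 over all 14, tested or not. Of the 11, only VEGFA had both hairpins below scramble. The median of the glycolysis class was 0.26 with hairpin 1 and 0.43 with hairpin 7. That of the 15 hypoxia members was 0.28 and 0.69, and that of all 18 was 0.32 and 0.54. The class medians thus differed by less than the hairpins did within the hypoxia class. No test of the difference between classes was made, since the smallest exact permutation p that 4 libraries in 2 groups allow is 0.333.

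The hairpin libraries stood apart in several members. Hairpin 7 was above hairpin 1 in 27 of 35 members, against 45.7% of all genes tested. In 7 of 35 the difference was at least 1 on the log2(FPKM + 1) scale, where 1.51% of all genes were that much higher with hairpin 7 and 1.56% that much lower, and in 0 members was hairpin 7 lower by as much. These 7 were SLC2A3 (2.99), ANGPTL4 (2.22), NDRG1 (2.04), ALDOC (1.56), EGLN3 (1.21), ENO2 (1.12) and PFKFB4 (1.03). Next below were PFKFB3 at 0.99 and HK2 at 0.95. Among genes with a scramble mean of at least 1 FPKM, which leaves out ANGPTL4, there were 6 of 34 members against 1.26% of genes. In that set hairpin 7 was above hairpin 1 in 26 of 34 members, against 45.5% of genes. Between the scramble libraries the largest difference of a tested member was 0.21.

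Set against the scramble mean, hairpin 7 was higher by at least 1 in 9 of 35 members, against 3.41% of all genes, and hairpin 1 in 3 of 35 (ALDOC, P4HA1 and ANKRD37), against 2.65%. With a scramble mean of at least 1 FPKM, which again leaves out ANGPTL4, hairpin 7 was that much higher in 8 of 34 members, against 2.58% of such genes. Each hairpin is 1 library, so whether this difference belongs to the hairpin or to the library was not tested. NIPBL itself was lower with hairpin 1 than with hairpin 7.

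**Figure D3:**
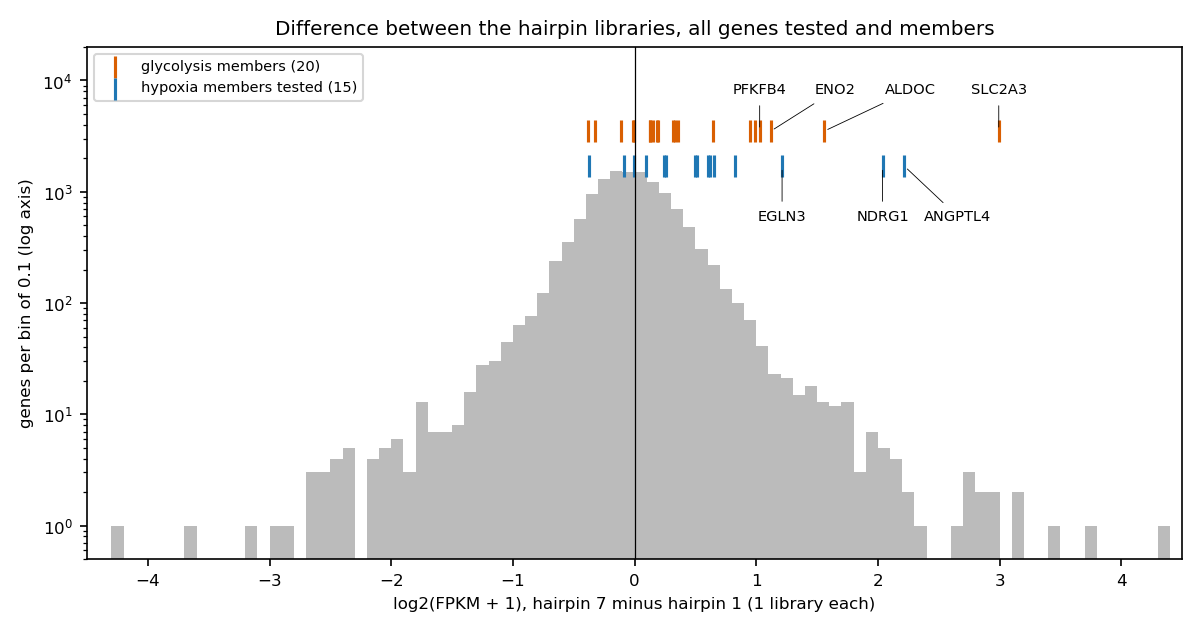
Grey bars count the 12834 genes tested by their log2(FPKM + 1) with hairpin 7 minus hairpin 1 (x axis, bins of 0.1, log y axis). Ticks mark the members, orange for glycolysis and blue for hypoxia, at heights that carry no value, and the 7 named members lie at 1.03 or more.

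Genes next to these in the pathway came from 5 lists with 119 genes, of which 92 were tested, 7 rose and 0 fell, where 1.45% of all genes tested rose and 1.11% fell. The lists were chosen with earlier results of these data known. Lactate leaves and enters cells through monocarboxylate transporters. SLC16A3, the lactate exporter of glycolytic cells and a HIF target, was at 70.44 and 68.89 FPKM in scramble and rose to 133.14 with hairpin 1 and 139.65 with hairpin 7 (log2 change 0.96 ± 0.09, SE, limma, adjusted p = 0.0218). SLC16A1, the widespread form, was at 67.48 and 67.71 FPKM in scramble, 43.95 with hairpin 1 and 34.07 with hairpin 7 (log2 change -0.79 ± 0.14, SE, limma, adjusted p = 0.0658). The pair was thus near equal in scramble, while SLC16A3 took 75.2% with hairpin 1 and 80.4% with hairpin 7.

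LDHB, the subunit that favours pyruvate, was at 451.61 and 442.84 FPKM in scramble, 402.53 with hairpin 1 and 293.88 with hairpin 7. LDHA gave 81.0% and 80.8% of both subunits in scramble, 83.9% with hairpin 1 and 88.6% with hairpin 7. MPC1, part of the mitochondrial pyruvate carrier, had a change of 0.39 ± 0.09 in log2 units (SE, limma, adjusted p = 0.0925). Of the 14 tested genes of lactate, pyruvate and mitochondrial entry 1 rose, against 1.45% of all genes, and the median was 0.00 to 2 decimals. Of the 9 tested further transporters and isoforms 0 passed, where 1.45% of all genes tested rose and 1.11% fell, so 0 is near that share. At an unadjusted p under 0.05 (limma) 1 was higher, against 13.6% of all genes. SLC2A10 was at 0.52, SLC2A8 at -0.30 and LDHB at -0.38 on the log2 scale.

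Branches of glycolysis gave 2 rises among 18 tested genes, against 1.45% of all genes. PGM1, which links glycolysis to glycogen, rose from 31.87 and 31.91 FPKM to 50.67 and 53.81 (log2 change 0.69 ± 0.09, SE, limma, adjusted p = 0.0409). PGLS, the gene of a lactonase, had a change of 0.64 ± 0.10 in log2 units (SE, limma, adjusted p = 0.052). PGM1 lost its call in the fit without a mean trend (adjusted p = 0.0654, limma).

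Among 17 tested regulators of HIF 1 rose, against 1.45% of all genes. CITED2, which competes with HIF for its coactivators and is itself induced by HIF, was at 25.85 and 27.16 FPKM in scramble and rose to 146.60 with hairpin 1 and 136.96 with hairpin 7, a 5.35-fold change of the mean (log2 change 2.38 ± 0.09, SE, limma, adjusted p = 0.00609). VHL, which targets hydroxylated HIF, was at 25.92 and 24.09 FPKM in scramble and at 16.14 and 15.80 with the hairpins (log2 change -0.61 ± 0.10, SE, limma, adjusted p = 0.054). HIF1AN, an asparaginyl hydroxylase that blocks coactivator binding, had a change of 0.49 ± 0.12 in log2 units (SE, limma, adjusted p = 0.0924).

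Of 34 tested further hypoxia-induced genes 3 rose, against 1.45% of all genes, and the median was 0.45, against -0.01. Over all 39 genes of the list, tested or not, the median log2 difference was 0.30. PLOD2, a collagen lysyl hydroxylase, was at 23.97 and 22.82 FPKM in scramble and rose to 81.52 and 77.13 with hairpins 1 and 7 (log2 change 1.72 ± 0.09, SE, limma, adjusted p = 0.0101). BHLHE40, a transcriptional repressor of the clock and hypoxia responses, rose from 16.41 and 17.35 FPKM to 51.11 and 90.12 (log2 change 1.95 ± 0.27, SE, limma, adjusted p = 0.0444), and PNRC1, a nuclear receptor coactivator, from 19.56 and 19.69 FPKM to 43.82 and 37.55 (log2 change 1.01 ± 0.11, SE, limma, adjusted p = 0.0306). BHLHE40 lost its call with quantile normalization (adjusted p = 0.0536, limma) and without a mean trend (adjusted p = 0.0632). In this list 5 of 34 genes were higher with hairpin 7 than with hairpin 1 by at least 1 on the log2 scale, and 1 was lower by as much, against 1.51% and 1.56% of all genes. The 5 include a gene with a scramble mean of 0.525 FPKM that entered the test only through hairpin 7. The gene that was lower had a scramble mean of 0.995 FPKM. In the fits without scramble 1 or scramble 2, which called 0 genes of the whole table, the log2 change of CITED2 was 2.34 and 2.41 and that of PLOD2 1.75 and 1.69.

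**Figure D4:**
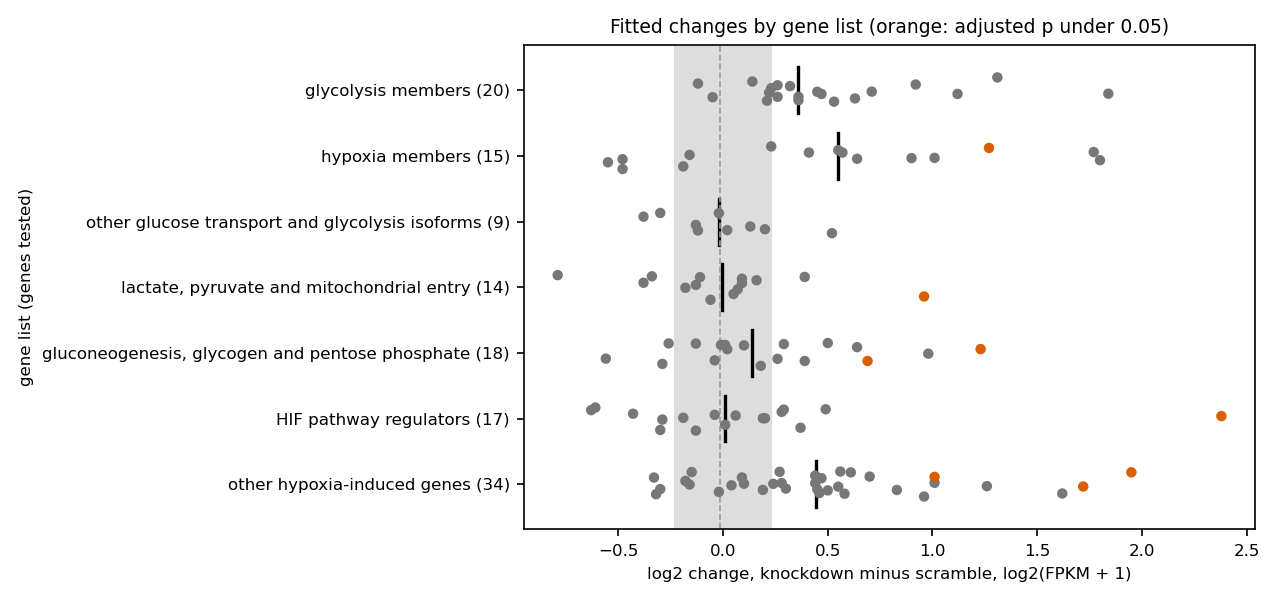
Points are tested genes placed by their fitted log2 change (x axis, log2(FPKM + 1) of the hairpin libraries minus that of scramble), by list, with black lines at the list medians and orange for genes that passed. The grey band spans the interquartile range of all genes, from -0.23 to 0.23, with a dashed line at their median, and the members' medians of 0.36 and 0.55 lie above it.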

How the data were processed

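The authors deposited 1 table of FPKM per gene for 4 libraries, given with 2 decimals. The submitters' processing notes name STAR and RSEM but no version. Not given in the sources used here were the build, the annotation and the strand setting. RSEM shares reads among similar genes, so values of enzymes with processed pseudogenes (GAPDH, PGAM1, ENO1, LDHA) and of overlapping genes are uncertain. Of 344810 rows, 291033 had no gene identifier and stayed out, with between 8.47% and 9.27% of a library's FPKM. Depth is unknown, so no counting intervals are given. The deposited values were put on a log2 scale after adding 1 FPKM and fitted in R 4.3.3 by limma 3.58.1, with a mean trend. The fit had 2 residual degrees of freedom and 2.87 from the prior. Log2 changes on this scale understate those of low genes. The fit was tested on simulated data, where it called almost none of the smaller changes and missed many of the largest. A gene that did not pass may therefore still differ. Named genes were all members, NIPBL, and from each further list those that passed and the 3 with the smallest p. A gene of the further lists is counted there but not reported here by name. Members and lists were chosen with earlier results of these data known. Alternatives were pseudocount 0.1, no filter, quantile or median scaling, no mean trend, averaged scramble libraries and leaving out each library.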

Additional observations from a re-analysis of the deposited data

How the results depend on the processing

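No paired analysis was possible because the labels give the groups no shared replicate numbers. Leaving out each library in turn gave between 0 and 4532 genes called in the whole table, 0 and 32 members, and 0 and 50 genes of the further lists. Without either scramble library limma called 0 genes of the whole table (1060 and 1052 at an unadjusted p under 0.05), so the loss is not particular to a gene. Without hairpin 1 or hairpin 7 the single hairpin library takes its spread from scramble, so members called in those fits are not counted here. With no filter limma called 1 gene in the table, 0 members (13 at an unadjusted p under 0.05) and 0 genes of the lists (34 unadjusted), and with the scramble libraries averaged 0, 0 and 0 (975, 4 and 15 unadjusted). With pseudocount 0.1, quantile normalization or median log ratio scaling it called 2 members, P4HA1 being added. The cause was not tested. The glycolysis median of 0.36 was 0.45 with quantile normalization and lay between 0.26 and 0.43 with a library left out, and the hypoxia median of 0.55 between 0.28 and 0.69. Those medians kept their sign in every alternative run. The log2 change of NIPBL stayed at -1.42 with no filter (adjusted p = 0.118, limma) and with averaged scramble libraries (0.281), where its call was lost, and lay between -1.57 and -1.27 with a library left out. Signs turned only for members whose groups overlap, when a library was left out: SLC2A3 ranged from -0.18 to 2.81, HK1 from -0.12 to 0.02, HK2 from -0.22 to 0.73, PFKM from -0.31 to 0.07, ENO1 from -0.04 to 0.32, PFKFB3 from -0.05 to 0.94, EGLN3 from -0.80 to 0.42, P4HA2 from -0.07 to 0.53 and DDIT4 from -0.48 to 0.17. The alternatives with all 18 hypoxia members, and with pseudocount 0.1 for the hairpin difference (0.34 in both), were added after seeing the data.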

Other observations

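Some members lie near each other on their chromosomes in GENCODE 29. GAPDH, TPI1, ENO2 and SLC2A3 follow one another on chromosome 12, with 19, 2 and 22 protein-coding genes between neighbours, and their log2 changes were 0.32, 0.22, 0.92 and 1.31. TPI1 and ENO2, the closest pair, had ratios of hairpin 7 to the scramble mean of 1.30 and 2.87. On chromosome 10, DDIT4 and P4HA1 have 5 protein-coding genes between them, with log2 changes of -0.16 and 1.01.

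An antisense row that overlaps VEGFA by 188 bases, RP1-261G23.7, was at 35.02 FPKM in scramble 1 and 29.77 with hairpin 1 and was listed at 0 in scramble 2 and with hairpin 7, while VEGFA itself was at 104.34 and 102.28 FPKM in scramble. A row of the same strand within HIF1A, RP11-618G20.1, was at 6.99 and 6.29 FPKM in scramble, at 3.93 with hairpin 1 and listed at 0 with hairpin 7. The 58 pseudogene rows named after GAPDH summed to between 2.21 and 3.55 FPKM per library.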
